A study of Mus musculus with 18 samples.

Results

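The dual oxidases and other genes of surface defense were followed through the mouse stomach in 10 genes: Duox2, Duox1, their maturation factors Duoxa2 and Duoxa1, the related oxidase Nox1, and the secreted or surface proteins Pigr, Dmbt1, Lcn2, Fcgbp and Zg16. The 10 were chosen as genes thought to rise with the maturity of pit cells in corpus and antrum, while 31201 genes had a row in the count tables. They were chosen by their measured CPM levels in mature pit against pre-pit cells, where they had any. Those levels are given here as a description without a test. Duox1 had no UMI in a pit cell. Of the 10, 9 had a row in a count table, and Lcn2, which encodes a protein that withholds iron from bacteria, was not analysed here. The rule described only some of the genes: Duox2 and Duoxa2 were higher in mature than in pre-pit cells of the corpus. Dmbt1 was lower in mature cells of the antrum and of 1 corpus dataset, and the states overlapped in the other. Pigr was higher in the mature corpus cells, in dataset 1 from only 6 UMIs against 1, and lower in the mature antrum cells. The direction of Fcgbp and Zg16 in the antrum turned on 2 pre-pit cells, that of Zg16 also on 1 mature cell.

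Dual oxidases sit in the apical membrane of epithelial cells and release hydrogen peroxide to the outside, where peroxidases use it against microbes, and in the thyroid DUOX2 supplies the peroxide for hormone synthesis. They leave the endoplasmic reticulum only with a maturation factor, DUOXA1 for DUOX1 and DUOXA2 for DUOX2. NOX1 is the superoxide-producing oxidase of the colon epithelium. PIGR carries dimeric IgA and IgM through epithelial cells to the lumen, DMBT1 is a scavenger receptor cysteine-rich glycoprotein that binds bacteria, and FCGBP and ZG16 are proteins of the intestinal mucus, the latter a lectin-like protein that binds Gram-positive bacteria. Pit cells, also called surface mucous cells, line the gastric surface. They arise from isthmus progenitor cells and move toward the lumen as they mature.

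All cells came from wild-type, untreated male C57BL/6J mice of 10 weeks. Single cells were sorted into 384-well plates and sequenced by Quartz-Seq2, which counts unique molecular identifiers (UMIs). Dataset 1 held gastric units of corpus and antrum together, excluded dead cells by a dye and consisted of tube 1 and tube 2, pools of 3 mice with 3 plates each, while dataset 2 held corpus cells that were Hoechst33342+ and ToPro3- from pool K and pool T, again 3 mice and now 6 plates each, which different operators prepared. Groups below are the clusters of the deposited annotation, and the region of a dataset 1 cell was known only from its cluster, because both regions shared a tube.

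The kept cells numbered 491 in 15 clusters of dataset 1 and 3993 in 20 clusters of dataset 2, with 2551126 to 4773020 and 10463555 to 12745419 UMIs per plate and a median of 38757 and 31020 UMIs per cell. The same 384 well barcodes were used on every plate of dataset 2 and 145 of 296 recurred between plates of dataset 1, but no cells had identical counts. Pit clusters carried the markers of their names: summed Krt7 and Krt20, markers of antrum pit cells, stood at 1603 and 1554 CPM (UMIs per 1000000 UMIs of the cells summed) in the antrum mature pit cells of the 2 tubes against 116 and 68.3 in the corpus mature pit cells. In the mature pit cells of dataset 2, all from the corpus, the same sum was 9.24 CPM in pool K and 131 CPM in pool T. Pool T thus lay above both corpus values of dataset 1, though far below the antrum. Aqp3, the marker of mature pit cells, was at 206 and 175 CPM in the corpus mature pit cells of dataset 1, but in the mature pit cells of dataset 2 at 76.0 CPM in pool T and only 9.70 CPM in pool K. No pool of pit cells held a UMI of the 5 neutrophil or the 5 plasma cell markers examined. Levels are given per pool as CPM, and a limit of 3 UMIs over the group stands in where a group had none. Such limits and all counting intervals cover counting error only.

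The 4 dual oxidase genes lie side by side on chromosome 2 (GRCm39; gene positions from GENCODE M39). Duox2 (ENSMUSG00000068452) is at chr2:122109728-122128930 on the minus strand and Duoxa2 (ENSMUSG00000027225) at chr2:122129380-122133366 on the plus strand, so that the gene for the oxidase and the gene for its partner start 449 bases apart and run away from each other. Duoxa1 (chr2:122132672-122144217, minus) and Duox1 (chr2:122146153-122178453, plus) form the second such pair, with starts 1935 bases apart. The ends of Duoxa2 and Duoxa1 overlap by 695 bases on opposite strands. Whether the counting used strand is not given in the sources used here, so UMIs in that overlap cannot be assigned with certainty.

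**Figure D1:**
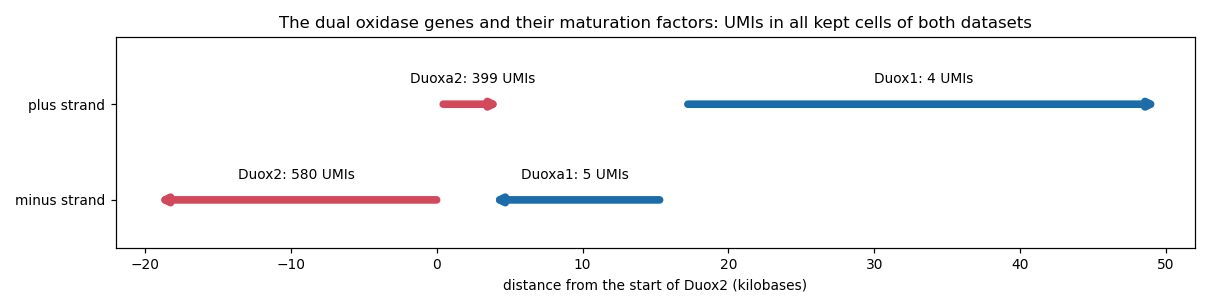
Map of the dual oxidase genes, with distance from the start of Duox2 in kilobases on the x axis and strand on the y axis. Arrows span each gene in its direction of transcription and carry the UMIs found in all kept cells of both datasets: 580 for Duox2 and 399 for Duoxa2, against 4 for Duox1 and 5 for Duoxa1.

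The bases before the starts of Duox2 and Duoxa2 are shown because the 2 genes were found in the same cells (see the cell counts that follow) and share the stretch between them. Each sequence gives the 150 bases before the annotated start, 5′ to 3′ on the strand of its gene, at chr2:122128931-122129080 (minus strand) for Duox2 and chr2:122129230-122129379 (plus strand) for Duoxa2, with capitals where a searched motif was found.
Duox2: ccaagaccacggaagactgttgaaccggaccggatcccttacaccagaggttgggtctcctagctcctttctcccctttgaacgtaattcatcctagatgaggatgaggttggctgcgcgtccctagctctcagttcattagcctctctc
Duoxa2: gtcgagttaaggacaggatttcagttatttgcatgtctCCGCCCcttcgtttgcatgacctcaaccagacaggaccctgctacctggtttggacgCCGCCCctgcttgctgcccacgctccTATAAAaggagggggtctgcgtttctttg
Motifs were searched on both strands: the TATA box as TATAAA, the CCAAT box by its letters, the GC box as GGGCGG and a palindrome bound by STAT factors as TTCNNNGAA. Duoxa2 had the TATA box 29 bases before its start and the GC box on the other strand at 112 and 55 bases, none of which overlapped another motif. None of the 4 motifs was in the window of Duox2. Of 21757 windows of the same length before protein-coding genes, 7.29% held the TATA box, 27.7% the CCAAT box, 32.6% the GC box and 4.34% the STAT palindrome. The windows had a GC content of 53.3% for Duox2 and 54.7% for Duoxa2.

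Duox2, the peroxide-producing enzyme itself, was highest in the corpus mature pit cells of both datasets. In dataset 1 its level there was 199 CPM in tube 1 (181 UMIs) and 51.9 CPM in tube 2 (41 UMIs). Corpus pre-pit cells had 5.73 and 0 CPM, antrum mature pit cells 6.36 and 5.90 CPM, and antrum pre-pit cells no UMI. Tube 1 lay above tube 2, and both lay above each pool of every other cluster. Outside the pit, Duox2 was found in 2 neck, 2 isthmus-like and 1 parietal cell.

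Dataset 2 gave the same order. Mature pit cells had 33.2 CPM in pool K (72 UMIs) and 57.4 CPM in pool T (167 UMIs), while none of the 291 pre-pit cells had a UMI, which allows a share of up to 1.03% of pre-pit cells with a UMI. Second came isthmus cluster 11, with 18.7 CPM in pool K and 0 in pool T, and 44 of its 45 Duox2 UMIs were in 1 cell. That cell also held 36 of the 38 Duoxa2 UMIs of the cluster, with 27 UMIs of Pigr and 52 of Dmbt1, but only 6 of Gkn2, a marker of all pit cells. In the other clusters Duox2 averaged at most 2.07 CPM over the pools.

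Duoxa2, the maturation factor, followed the enzyme. Corpus mature pit cells of dataset 1 had 149 and 26.6 CPM (136 and 21 UMIs) and corpus pre-pit cells no UMI. In dataset 2, mature pit cells had 16.2 CPM in pool K and 46.8 CPM in pool T (35 and 136 UMIs), against 0.469 and 0 CPM in pre-pit cells (2 UMIs in all). Antrum mature pit cells had 5.83 and 5.06 CPM, and antrum pre-pit cells 5.53 and 0 CPM, so with all cells the 2 antrum states overlapped. Of the 4 antrum pre-pit UMIs, 2 were in 1 of the 2 Muc2-rich cells described below. Without those cells the pre-pit level was 2.81 and 0 CPM, below both mature values but from only 2 UMIs.

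As ratios of summed counts between mature and pre-pit cells, Duox2 was 37.2-fold higher in the corpus of dataset 1 (95% counting interval 18.6 to 87.3). Of the 8 pre-pit UMIs behind that ratio 7 were in 1 cell, and of the 222 mature UMIs 78 and 68 were in 2 cells. The interval does not cover this spread between cells. In dataset 2 Duox2 was at least 150-fold higher, set against the limit of 3 UMIs in pre-pit cells. For Duoxa2 the ratio was at least 70.2-fold in the corpus of dataset 1 and 161-fold in dataset 2 (43.8 to 1337, from 2 UMIs in pre-pit cells). In the antrum Duox2 was at least 2.49-fold higher in mature cells. The ratio of Duoxa2 there, with the Muc2-rich cells included, was 1.67 with an interval that spans 1 (0.545 to 6.82).

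**Figure D2:**
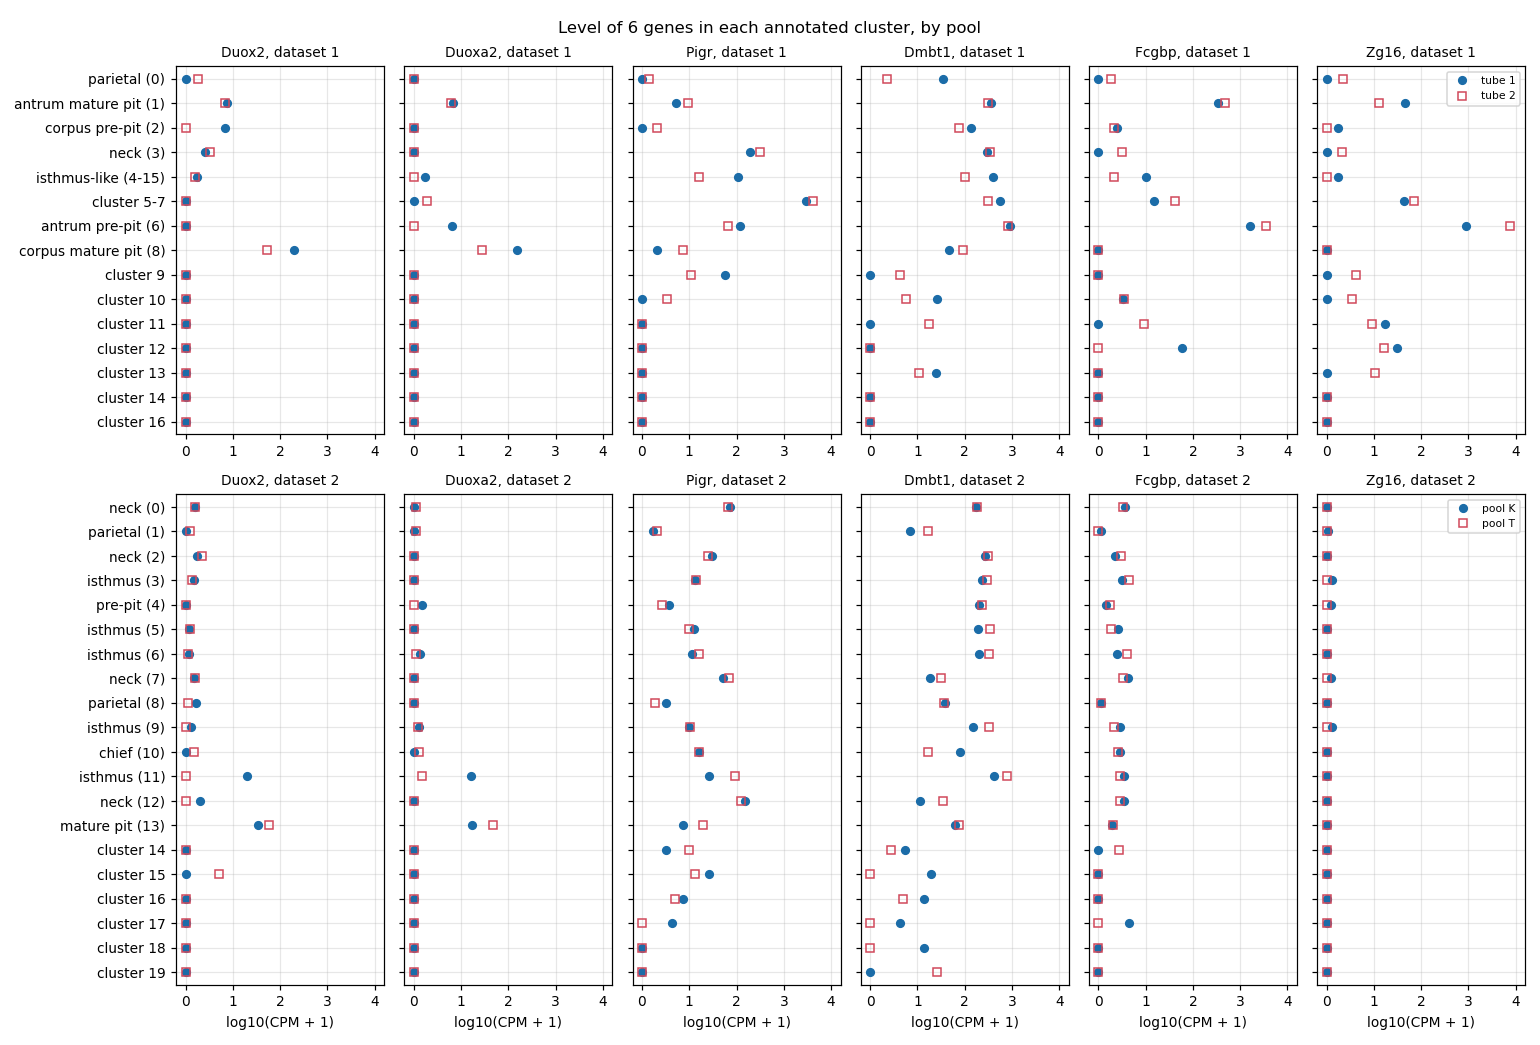
Levels of Duox2, Duoxa2, Pigr, Dmbt1, Fcgbp and Zg16 in every annotated cluster, as log10(CPM + 1) on the x axis, with dataset 1 above and dataset 2 below and 1 symbol per pool. Duox2 and Duoxa2 stand out in the mature pit clusters 8 and 13, Pigr peaks in cluster 5-7, Dmbt1 is spread over many clusters, and Fcgbp and Zg16 peak in the antrum pre-pit and antrum mature pit clusters or cluster 5-7.

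The high level of mature pit cells came from few of them. In dataset 1, 9 of 26 corpus mature pit cells had a Duox2 UMI, 5 from tube 1 and 4 from tube 2, and in dataset 2 it was 12 of 121, 5 from pool K and 7 from pool T. Of the cells with Duox2, 7 of 9 and 7 of 12 also had Duoxa2, and only 1 cell in each cluster had Duoxa2 alone, so that 98.7% and 99.4% of the Duoxa2 UMIs were in cells with Duox2. Over the cells, Spearman's rho of the 2 genes was 0.779 (26 cells) and 0.727 (121 cells), which describes cells of shared libraries and depth and rests on the cells above 0.

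Within single cells the numbers were large. The highest dataset 1 cell held 78 Duox2 and 41 Duoxa2 UMIs, another 68 and 81, and the highest cells of pool K and pool T held 62 with 28 and 87 with 79. All 5 mature pit cells of dataset 2 with over 10 Duox2 UMIs had Duoxa2, as had 5 of the 6 in dataset 1. Without the top cell of each pool, the Duox2 level fell from 199 to 124 CPM in tube 1, from 51.9 to 35.8 in tube 2, from 33.2 to 4.74 in pool K and from 57.4 to 28.0 in pool T. Pool K therefore rested mostly on 1 cell, and the other pools less so.

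**Figure D3:**
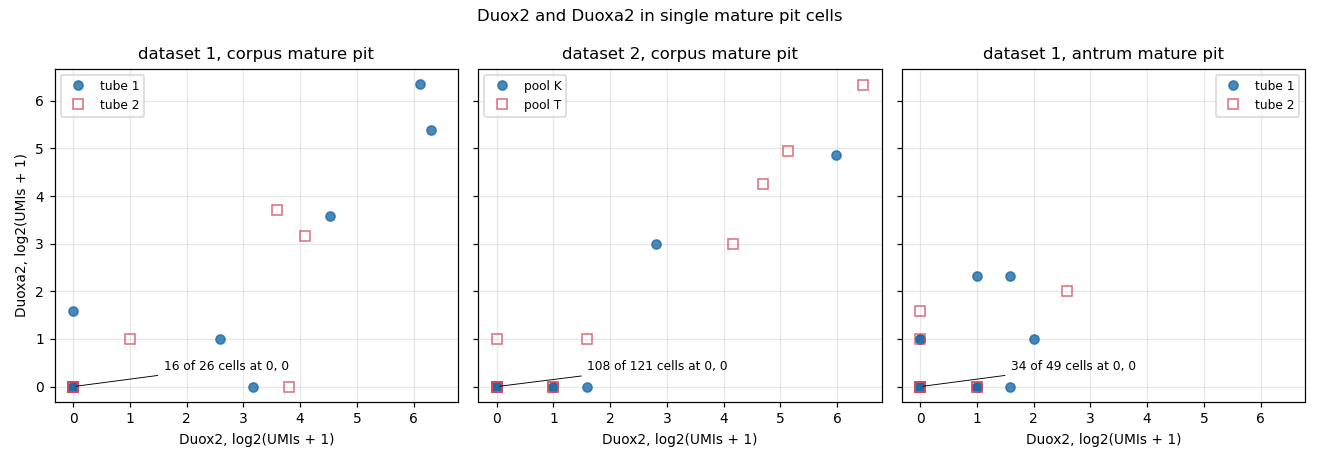
UMIs of Duox2 (x axis) and Duoxa2 (y axis) in single mature pit cells, both as log2(UMIs + 1), in the corpus of dataset 1, the corpus of dataset 2 and the antrum of dataset 1, with 1 symbol per cell and pool. Most cells lie at 0 for both genes (16 of 26, 108 of 121 and 34 of 49), and in the corpus panels the cells high in one gene are high in the other.

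Shares of cells with a UMI were set against depth by thinning each cell to 10000 UMIs. After thinning, Duox2 was in 30.8% of corpus mature pit cells of dataset 1 (Wilson 95% interval 16.5 to 49.99, 34.6% before thinning) and in 6.84% of mature pit cells of dataset 2 (3.51 to 12.9, 9.92% before), leaving out 0 and 4 shallower cells. Parietal cells, which are not known for Duox2 and were at least as deep (medians 64127 and 47647 UMIs against 63978 and 43578), had 0 and 0.143% after thinning. Antrum mature pit cells had Duox2 in 22.4% before thinning and in 2.04% after it. Their median depth of 60691 UMIs was close to that of the corpus mature pit cells, and their 19 Duox2 UMIs were spread over 11 cells, so that thinning removed most of them.

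In dataset 1, corpus mature pit cells with Duox2 were the deeper ones by median, at 69444 UMIs against 57223 in cells without Duox2. The ranges overlapped, at 56101 to 92824 and 33119 to 105673 UMIs. Their mitochondrial share was close, at 4.75% against 4.98%, as was their summed Aqp3, at 188 against 193 CPM. In dataset 2 the median depth was 47858 against 43185 UMIs, and the mitochondrial share was again close (4.14% against 4.43%). Aqp3, however, was at 215 CPM in the cells with Duox2 and at 27.8 CPM in those without. This difference was one of pool T, at 384 CPM in 7 cells with and 40.3 CPM in 61 cells without Duox2. In pool K none of the 5 cells with Duox2 had an Aqp3 UMI, as against 8 of the 48 without.

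The second pair was nearly silent. Duox1 had no row in dataset 1 and 4 UMIs in the 3993 cells of dataset 2, of which none was in a pit cell, and Duoxa1 had 3 UMIs in dataset 1 and 2 in dataset 2. Nox1 had no row in dataset 1 and 14 UMIs in dataset 2, each in a different cell, over 9 clusters, with 1 in the mature pit cells. At this depth no level could be compared between clusters for these 3 genes.

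Pigr, the immunoglobulin carrier, was a gene of other cells. Cluster 5-7 of dataset 1 had 2944 and 4053 CPM, with a UMI in all 70 of its cells, and is called enterocyte-like because the 10 enterocyte markers examined summed to 54488 CPM in it and its leading genes include Apoa4, Fabp1 and Alpi. All 10 were also detected in the parietal and isthmus-like clusters of dataset 1, but at a sum of 7285 and 278 CPM. Neck cells followed with 192 and 316 CPM, then antrum pre-pit cells with 117 and 64.1 CPM. Corpus mature and pre-pit cells stood far below at 1.10 and 6.33 CPM and at 0 and 1.13 CPM, that is, 6 UMIs in 3 mature cells and 1 UMI in the pre-pit cells.

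In dataset 2 Pigr was highest in neck cluster 12 (147 and 121 CPM), and neck clusters 0 and 7 and isthmus cluster 11 came next with ranges that overlapped. Mature pit cells had 6.46 CPM in pool K and 18.9 CPM in pool T against 2.82 and 1.71 CPM in pre-pit cells, a ratio of 6.17 (counting interval 3.74 to 10.6), and 75.4% of the 69 UMIs were in 5 cells. Antrum mature pit cells, at 4.24 and 8.43 CPM, lay below antrum pre-pit cells, a log2 change of -3.71 (SE 0.76). Both tubes shared that direction, and it was -3.01 without the 2 Muc2-rich cells described below, which carried 39.7% of the Pigr UMIs of the antrum pre-pit cells. Of the 70 UMIs then left, 50 were in 1 cell of tube 1, and without it too the pre-pit level would be 16.3 and 19.9 CPM in the tubes.

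Dmbt1, the bacteria-binding glycoprotein, was lower in mature cells of the antrum and of dataset 2. Antrum pre-pit cells had 889 and 825 CPM and antrum mature pit cells 354 and 303 CPM, a log2 change of -1.11 (SE 0.45), and 31 of 32 and 46 of 49 cells had a UMI. In dataset 2, pre-pit cells had 195 and 228 CPM and mature pit cells 61.9 and 74.9 CPM, a log2 change of -1.48 (SE 0.43). In the corpus of dataset 1 the levels of 135 and 74.5 CPM in pre-pit and 45.1 and 89.8 CPM in mature cells overlapped (-0.50, SE 0.61).

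Outside the pit, Dmbt1 was highest in isthmus cluster 11 of dataset 2, with 411 CPM in pool K and 797 CPM in pool T. The other isthmus clusters lay between 146 and 341 CPM, and neck cluster 2 at 271 and 310 CPM, so these ranges overlapped. Neck clusters 7 and 12 had only 17.6 and 30.1 CPM and 10.3 and 33.2 CPM, although neck cluster 12 was where Pigr peaked. Thinned to equal depth, 50.2% of pre-pit and 29.1% of mature pit cells of dataset 2 had a Dmbt1 UMI (71.5% and 56.2% before), against 6.56% of parietal cells (20.5% before).

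Fcgbp, the large mucus protein, was a gene of the antrum. Antrum mature pit cells had 338 and 481 CPM (1209 UMIs in all) and antrum pre-pit cells 1642 and 3575 CPM, whereas corpus mature pit cells had no UMI and corpus pre-pit cells 1.43 and 1.13 CPM. In dataset 2, which held corpus cells only, the highest cluster averaged 2.797 CPM.

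Zg16, the mucus lectin, had 890 and 7615 CPM in antrum pre-pit cells and 45.6 and 11.8 CPM in antrum mature pit cells. Cluster 5-7 had 42.0 and 69.6 CPM, overlapping the antrum mature pit cells. No UMI of Zg16 was in a corpus mature pit cell of either dataset, and all of dataset 2 held 6.

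In the antrum pre-pit cluster, 2 of the 32 cells, 1 from each tube, held 99.0% of the Fcgbp UMIs (1167 and 1720) and 99.9% of the Zg16 UMIs (644 and 3679). The same cells held 218 and 833 UMIs of Muc2, the intestinal gel-forming mucin, and 1142 and 2358 of the trefoil factor gene Tff3, both typical of goblet cells, but 8 and 4 UMIs of Gkn2 and none of Muc5ac. Goblet cell markers summed to 2474 and 9986 CPM in the whole antrum pre-pit cluster, against 796 and 791 CPM in antrum mature pit and at most 459 CPM in the corpus pit clusters. The 2 cells were set apart, after their values were seen, by a limit of 100 Muc2 UMIs.

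Without them the 30 other antrum pre-pit cells had 29.5 and 19.9 CPM of Fcgbp and 0 and 8.86 CPM of Zg16, below the mature cells in both tubes. The log2 change with maturity thus went from -2.41 to 4.26 for Fcgbp and from -6.82 to 3.36 for Zg16. Only without these 2 cells was either gene at a higher level in the mature antrum cells, as the rule that chose them has it. For Fcgbp, 35 of 49 mature and 11 of 30 pre-pit cells then had a UMI. For Zg16 it was 4 of 49 and 3 of 30, and 86 of the 100 mature UMIs were in 1 cell of tube 1, without which that tube had none in either state.

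Antrum mature pit cells expressed Fcgbp without such a Muc2 level. Of the 49 cells, 35 had a UMI, and 15 with at least 10 UMIs held 96.6% of the total, the highest with 202, 184, 142, 141 and 104. A single Muc2 UMI was found among those 15 cells, while Clca1, another intestinal mucus gene, was in 14 of them and in 28 of the 34 other cells, at 1081 and 287 CPM. The cell with 86 Zg16 UMIs held 16 of Fcgbp and 1 of Muc2.

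**Figure D4:**
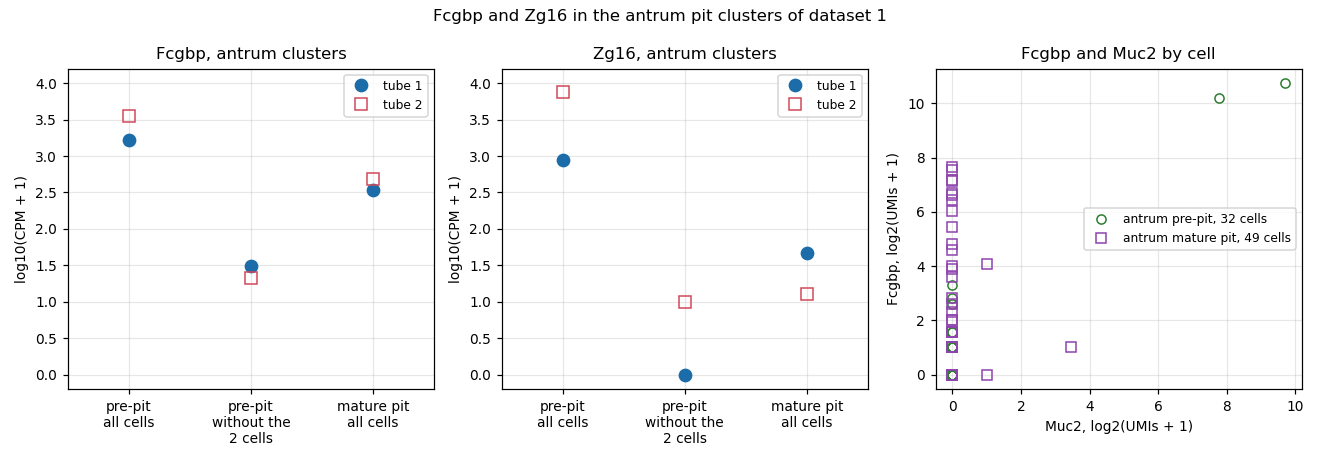
Fcgbp and Zg16 in the antrum pit clusters of dataset 1: the first panels give log10(CPM + 1) per tube for pre-pit cells, for pre-pit cells without the 2 cells of at least 100 Muc2 UMIs and for mature pit cells, and the last panel sets Fcgbp against Muc2 by cell as log2(UMIs + 1). Leaving out the 2 cells takes Fcgbp from 1642 and 3575 CPM to 29.5 and 19.9 CPM, below both mature values.

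The question whether these genes differ between mature pit cells of antrum and corpus was put to a test across all 10229 genes that passed the filter on low counts in dataset 1 (edgeR quasi-likelihood test on sums per tube and cluster, Benjamini-Hochberg adjusted). Of the 6 genes of the set that passed, Fcgbp and Dmbt1 were higher in antrum and Duox2 and Duoxa2 lower, where 2.66% of all genes were called higher and 1.63% lower. The regional difference of Duox2, Fcgbp and Zg16 was known from earlier results of these data, and the regions themselves are clusters drawn on the same expression values, so the test is no independent support. Several of the 6 passed the filter only through the group where they were high, so the count of 4 says little about the set.

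Duox2 was lower in antrum, with a log2 difference of -4.33 (SE 0.56, adjusted p = 0.000135 in edgeR), 21.1-fold by summed counts. The difference ran from -5.00 to -2.99 in the 10 alternatives. These reuse the same cells and clusters, so neither the test nor its alternatives are independent support. Duoxa2 was lower too, with a log2 difference of -3.99 (SE 0.67, adjusted p = 0.00206), but its adjusted p was 0.963 in DESeq2, and without corpus mature pit replicate tube 1 its change was -2.19 with an adjusted p of 0.195. In all, the 2 genes had 222 and 157 UMIs in 26 corpus cells and 19 and 17 UMIs in 49 antrum cells, and neither tube overlapped between regions.

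Fcgbp, which passed the filter on low counts only through the antrum clusters, was at least 223-fold higher in antrum mature pit cells. It had 1209 UMIs in them against none in corpus mature pit cells. Its adjusted p of 8.49e-07 in edgeR is therefore no independent support for a higher level in antrum mature pit cells. Dmbt1 was higher there by 2.34 on the log2 scale (SE 0.56, adjusted p = 0.0185), yet it missed the threshold in DESeq2 (adjusted p = 0.501) and whenever a tube of either group was left out. Zg16 was at least 18.4-fold higher but did not pass (adjusted p = 0.197 in edgeR, from 86 UMIs, all in 1 cell, and 14 UMIs per tube), although it passed in DESeq2, with no filter on low counts and without the Muc2-rich cells (adjusted p = 0.00273). For Pigr the difference was 0.75 (SE 1.54, adjusted p = 0.901), an interval too wide to place it.

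Whether the change with maturity differed between antrum and corpus was tested as an interaction in the same model. None of the 6 genes was called in edgeR or DESeq2, where 0.0196% of all genes were called for a larger change in antrum and 0.00978% for a smaller one, while 2 of the 6, Duoxa2 and Pigr, had an unadjusted p under the threshold of 0.05. Dmbt1 gave -0.60 (SE 0.76, adjusted p = 0.976), a difference smaller than its error. With the pool as a block 12 in place of 3 genes were called in all, none of them from the set. With no filter on low counts Duoxa2 and Pigr passed (adjusted p = 0.000163 and 4.36e-05). There the corpus pre-pit cells held no UMI of Duoxa2 and 1 UMI of Pigr. The interaction is computed from the same mature and pre-pit levels by which the genes were chosen, so it is no independent support.

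Between the pools of dataset 2, which differ in mice and operator, 1 gene of the set, Dmbt1, passed the filter in each pit cluster. Its difference of pool T from pool K was 0.42 (SE 0.38, adjusted p = 0.772 in edgeR over plates) in mature and 0.24 (SE 0.24, adjusted p = 0.702) in pre-pit cells. Neither was called in edgeR or DESeq2 or had an unadjusted p under 0.05, where 0.853% and 0.241% of 5390 genes were called higher and lower in pool T in mature pit cells and 1.18% and 0.841% of 7725 genes in pre-pit cells. Aqp3 was among the genes called in mature pit cells, higher in pool T by 2.98 (SE 0.49, adjusted p = 0.00173) and by 2.68 to 4.12 in the alternatives, all of which called it, so the mature pit cells of the pools differ in this marker as well as in mice and operator.

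Plate by plate, Duox2 in mature pit cells ranged from 0 through a median of 2.59 to 147 CPM in pool K and from 0 through 15.5 to 284 CPM in pool T. Means were 29.8 ± 58.5 CPM (SD, n = 6 plates) and 60.2 ± 111 CPM, and an exact two-sided permutation test over plates gave p = 0.548. Duoxa2 had 14.9 ± 26.9 and 50.2 ± 103 CPM (exact permutation p = 0.652) and Pigr 5.79 ± 8.88 and 21.9 ± 24.9 CPM (exact permutation p = 0.110). Over 8 such tests the smallest Benjamini-Hochberg value was 0.871, and for these 3 genes the difference between pools was smaller than the SD over the plates of pool T, each plate with 6 to 17 mature pit cells. Plates of a pool share its 3 mice, so these p-values cover the spread between plates.

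**Figure D5:**
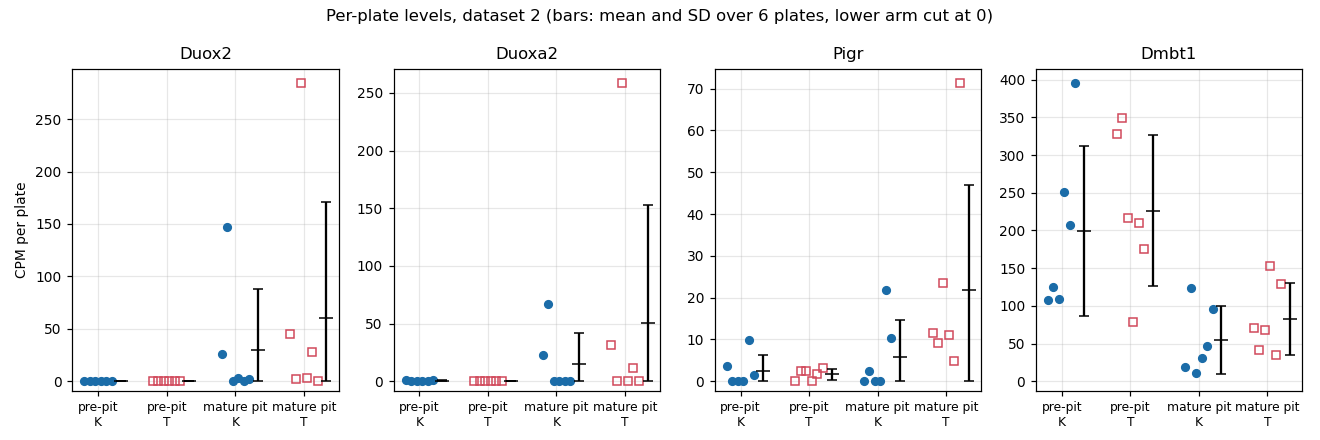
Levels of Duox2, Duoxa2, Pigr and Dmbt1 per plate of dataset 2 (CPM, linear y axis, each panel with its own range) in pre-pit and mature pit cells of pools K and T, with bars for the mean and SD over 6 plates and the lower arm drawn to 0. For Duox2 a single plate per pool, at 147 and 284 CPM, lies far above the others.

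Other genes of the pathway were followed in 5 lists. Over all genes, 6.52% were called higher and 3.84% lower in mature than in pre-pit cells of dataset 2, 7.08% and 5.86% in the corpus of dataset 1, and 8.29% and 5.66% in the antrum, and the counts of the lists stand against these shares and, between regions and pools, against those given above. With so few genes in a list, each call weighs several percent. The mature and pre-pit clusters were drawn on the same expression values, so the maturity p-values of the lists describe these clusters and are no independent support. Of 18 NADPH oxidase partners (subunits, organizers and activators), 9 were tested in each of the maturity contrasts. None was called in the corpus of either dataset, where their median log2 changes were 0.12 in dataset 2 and 0.37 in dataset 1 against -0.02 and -0.03 over all genes. In the antrum 3 of 9 were called higher in mature cells, led by Noxa1, the activator of NOX1, at 1.99 (SE 0.41, adjusted p = 0.0032) and Cybc1, a chaperone of the phagocyte oxidase, at 0.92 (SE 0.29, adjusted p = 0.0418). Noxa1 had 13.8 and 14.5 CPM in antrum pre-pit and 61.5 and 26.97 CPM in antrum mature pit cells. Between regions only Sh3pxd2b, an organizer protein, was called, higher in antrum by 1.25 (SE 0.34, adjusted p = 0.0399).

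Among 24 peroxide users and scavengers, 2 of 18 tested were called higher and 3 lower in mature pit cells of dataset 2, 3 and 2 of 17 in the corpus of dataset 1, and 4 and 3 of 17 in the antrum. The endoplasmic reticulum peroxiredoxin Prdx4 was lower in all 3 contrasts, with log2 changes of -1.03 (SE 0.10), -1.19 (SE 0.23) and -1.18 (SE 0.24), each called in edgeR (adjusted p = 2.58e-05, 0.0023 and 0.00246). Slc5a5, the sodium-iodide symporter, was higher by 1.30 (SE 0.20, adjusted p = 0.00117) in dataset 2, with 549 and 542 CPM in mature and 201 and 283 CPM in pre-pit cells. It was not called in dataset 1, at 0.38 (SE 0.19, adjusted p = 0.212) in the corpus, with 579 and 578 CPM in mature and 463 and 552 CPM in pre-pit cells, and at 0.47 (SE 0.19, adjusted p = 0.125) in the antrum, where the tubes overlapped. Superoxide dismutase Sod1 was higher by 0.74 (SE 0.12, adjusted p = 0.000463) in the corpus of dataset 1, and catalase Cat by 1.36 (SE 0.19, adjusted p = 0.000152) in the antrum.

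In the region comparison 2 of the 17 tested were called higher in antrum, Srxn1, which reactivates peroxiredoxins, by 0.86 (SE 0.21, adjusted p = 0.0205) and Prdx3, the mitochondrial peroxiredoxin, by 0.61 (SE 0.17, adjusted p = 0.0405), and none lower. Between the pools Srxn1 was higher in pool T in mature pit cells by 0.98 (SE 0.25, adjusted p = 0.0468 in edgeR) and Slc5a5 in pre-pit cells by 0.51 (SE 0.11, adjusted p = 0.0129), each the only one called of 16 tested.

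Of 30 mucosal defense genes, 12 were tested in dataset 2 and 7 in dataset 1, and in the corpus none was called with maturity (median log2 change -0.28 in dataset 2 and -0.52 in dataset 1). In the antrum Bpifb1, a secreted protein of the airway and mouth, was lower in mature cells, at -6.19 (SE 1.40, adjusted p = 0.00583), but it had 271 CPM in tube 1 and 4.13 CPM in tube 2 of the antrum pre-pit cells. Pglyrp1, a peptidoglycan-binding protein, was higher in antrum than in corpus mature pit cells by 2.08 (SE 0.37, adjusted p = 0.00179), at 83.2 and 99.5 CPM against 18.7 and 25.3 CPM.

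The list of intestinal mucus layer genes holds 14, not all of them genes of secreted mucus proteins. It had 3 higher and 1 lower of 10 tested in dataset 2, and 4 and 1 of 11 in the corpus of dataset 1. Muc2, Clca1 and Tff3 were not among these corpus calls. Capn9, a gastric calpain, led both, at 3.25 (SE 0.27, adjusted p = 6.83e-06) and 1.69 (SE 0.20, adjusted p = 4.17e-05), followed by Fer1l6 at 1.68 (SE 0.23, adjusted p = 0.000428) in dataset 2 and by Spink4 at 1.36 (SE 0.39, adjusted p = 0.0281) in dataset 1. In the antrum 3 were higher and 4 lower, among them Tff3 at -9.79 (SE 0.57, adjusted p = 1.17e-08) and Muc2 at -7.70 (SE 0.84, adjusted p = 2.35e-05). All 1051 Muc2 UMIs of the antrum pre-pit cells were in the 2 Muc2-rich cells. These cells also held 1142 of the 1144 Tff3 UMIs of tube 1 and 2358 of the 2361 of tube 2.

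Between regions 3 of the 11 mucus genes were called higher in antrum mature pit cells and none lower. Clca1, an intestinal mucus protease, was at 539 and 540 CPM in antrum and at 2.20 and 46.8 CPM in corpus mature pit cells (log2 4.56, SE 0.75, adjusted p = 0.000968). Klk1, a kallikrein, had 17.0 and 11.8 CPM in antrum against no UMI in the corpus (adjusted p = 0.0439).

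Among 23 genes of cytokine and microbe sensing, which hold receptors and factors known to act upstream of dual oxidases in other epithelia, 2 of 22 tested were higher and 1 lower in mature pit cells of dataset 2. The interleukin-1 receptor Il1r1 was higher by 1.23 (SE 0.31, adjusted p = 0.0239). In the corpus of dataset 1, 3 of 22 were higher and 0 lower, with Il1r1 at 1.86 (SE 0.48, adjusted p = 0.0137) and Il17rc, a subunit of the interleukin-17 receptor, at 0.85 (SE 0.23, adjusted p = 0.0176).

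In the antrum 2 of 22 were higher with maturity and 0 lower, Il17rc by 1.05 (SE 0.20, adjusted p = 0.00187) and Ifngr1 by 0.68 (SE 0.20, adjusted p = 0.0257). Between regions 3 were higher in antrum mature pit cells, with the interferon receptor Ifnar1 at 1.94 (SE 0.53, adjusted p = 0.0439) and Il10rb at 1.14 (SE 0.25, adjusted p = 0.00981), and 0 lower. Between the pools only Nfkbiz was called, lower in pool T at -0.54 (SE 0.11, adjusted p = 0.00777 in edgeR over plates) in pre-pit cells. In the interaction no gene of the 5 lists was called. Of the 32 calls with the largest changes in the lists (up to 2 per list and contrast), 15 held in every alternative that gave a value (without the Muc2-rich cells Muc2 and Tff3 gave none) and 17 lost significance in at least 1, among them those of Noxa1, Cybc1, Sh3pxd2b, Srxn1, Prdx3, Bpifb1, Klk1, Spink4, Il1r1, Ifnar1, Il10rb and Ifngr1, in the corpus of dataset 1 those of Il17rc and Prdx4, and between the pools that of Slc5a5.

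Likeness of pattern was measured over all 35 clusters of both datasets as Pearson's r of log2(CPM + 1), among 11983 genes with at least 50 UMIs in each dataset. The nearest gene to Duox2 was Duoxa2 and the nearest to Duoxa2 was Duox2 (r = 0.933), followed for Duox2 by 6720468P15Rik (0.785) and 9530036O11Rik (0.771) and for Duoxa2 by S100a7l2 (0.831) and 6720468P15Rik (0.811). Aqp3 ranked 15th for Duox2 (0.674). Dmbt1 was most like Phlda2 (0.920), Ces2g (0.907) and Ces1f (0.902), and among the genes most like Pigr were Cyp2d26 (0.839) and Cgref1 (0.815). Fcgbp was most like Clca1 (0.887), Myl7 (0.726) and Gm5864 (0.705), and Zg16 most like Fcgbp (0.866), Clca1 (0.782) and Fam20a (0.670). The clusters share libraries and differ in depth, so these values only describe. In the antrum pre-pit cluster the 2 Muc2-rich cells held 99.0% of the Fcgbp and 99.9% of the Zg16 UMIs. They also held 232 of the 263 Clca1 UMIs of tube 1 and 1186 of the 1242 of tube 2. How far the likeness of Fcgbp, Zg16 and Clca1 rests on these cells was not tested.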

How the data were processed

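The deposited tables hold UMI counts per gene and well. Per the labels and the study's methods, the authors demultiplexed the reads (bcl2fastq 2.20.0.422), aligned them to GRCm39, dropped wells with few genes and clustered the kept cells without integration. The deposited metadata give the cluster of each kept cell, its mitochondrial share in percent and other fields such as plate names. No doublet caller was run here. Counts were summed per pool and cell type (pit, neck, isthmus, chief and parietal clusters) and fitted with edgeR 4.0.16 in R 4.3.3 (filterByExpr, TMM, quasi-likelihood test, Benjamini-Hochberg threshold 0.05, all genes). Pool contrasts used plate sums. DESeq2 1.42.0, no filter, other scaling, the plate as the unit, a pool block, leaving out the 5% of cells with the most UMIs and leaving out each sum were alternatives, and leaving out cells high in Muc2 was added after seeing the data. Each pool links its own mice across cell types: the pool deviations of pairs of cell types correlated by -0.04 to 0.079 in dataset 1 and by 0.10 to 0.521 in dataset 2 (all 15 pairs). The models were tested on simulated data. The genes and lists were chosen with earlier results of these data known. All 10 genes and, per list and contrast, the 2 called genes of largest change were named, except for items that are not reported here. Lcn2 was not analysed here.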

Additional observations from a re-analysis of the deposited data

Results flagged for a closer look

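In dataset 2, 5 of 16 sets of 6 plates (a gene in 1 pit cluster of 1 pool, with UMIs on at least 2 plates) had a plate set far apart from the others by Dixon's test. Chance does so in about 1 of 20 sets of normally distributed values, a rate that does not carry over to these sets, in which many plates are at 0. For Duox2 in mature pit cells the highest plate of pool K stood at 147.4825 CPM with the next at 25.9 CPM, and that of pool T at 283.9802 CPM with the next at 44.7 CPM. For Duoxa2 the highest plates were at 66.605 CPM in pool K (next 22.7) and at 258.1638 CPM in pool T (next 31.5), and the highest Pigr plate of pool T was at 71.2249 CPM (next 23.5). In pool K, 62 of the 72 Duox2 UMIs were in 1 cell, and in pool T 87 of 167.

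The Pigr change from pre-pit to mature pit cells was upward in both tubes in the corpus (mean 3.15 CPM) and downward in both tubes in the antrum (mean -84.5 CPM), a difference of -87.6052 CPM. In the corpus it rests on 1 UMI in pre-pit and 6 in mature cells, with 0 and 1 of them in tube 1. In the antrum 50 of the 116 pre-pit UMIs were in 1 cell, and 24 and 22 were in the 2 Muc2-rich cells. Without all of these cells the antrum pre-pit level was 16.3 and 19.9 CPM in the tubes, against 4.24 and 8.43 CPM in antrum mature pit cells. This opposite direction was not tested as such, and the interaction term of the edgeR model gave an adjusted p of 0.787.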

How the results depend on the processing

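Leaving out the 2 Muc2-rich cells reversed the antrum change of Fcgbp (4.26) and Zg16 (3.36), because those cells hold nearly all of their pre-pit UMIs, but 86 of the 100 mature Zg16 UMIs are in 1 cell, without which tube 1 has none in either state. The number of genes called moved as follows, and the cause was not tested. The interaction count of 3 became 11 in DESeq2, 97 with no filter, 12 with the replicate block, 9 without the 5% of cells with the most UMIs, 7 without the Muc2-rich cells and 2 to 8 with a sum left out. In antrum and corpus maturity DESeq2 called 684 (1427 in edgeR) and 665 (1323) genes, and leaving out a sum gave 624 to 958 and 420 to 1236. For the region comparison these were 205 (439) and 201 to 259. For maturity in dataset 2 the count of 1439 became 2590 with the plate as the unit and 465 to 1189 with a sum left out. Pool counts in mature pit cells went from 59 to 204 with no filter, 19 without the deepest cells and 35 to 73 without a plate, and in pre-pit cells from 156 to 272 with no filter and 100 to 171 without a plate. The replicate block (pool) gave 1974, 1405, 1481 and 461 calls in the maturity contrasts of dataset 2, corpus and antrum and in the region comparison, and did not otherwise move a count by over 1.5 times. Of the other values for genes named, 891 of 1029 kept their direction and side of the threshold, or moved by less than their spread.

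Each pool sum rests on 3 mice and each comparison on 2 pools, so small differences could not be seen. Duox1, Duoxa1 and Nox1 had too few UMIs at this depth for any comparison, and the pit clusters held 26 to 49 cells in dataset 1, so that single cells set some levels.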
